A study of Homo sapiens with 9 samples.

Results

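The genes described here encode the machinery by which neurons and endocrine cells release the contents of their vesicles, and 38 such genes were listed by symbol. All 38 were measured, out of 19775 genes in all, and each was represented by its brightest probe set among those annotated to 1 gene symbol only. The arrays hold RNA of H69, an established human small cell lung cancer line that carries neuroendocrine features. The cells had been treated for 24 h with PIK75 at 100 nM (3 arrays), with TGX221 at a labelled 1 mM (3 arrays), or with the vehicle DMSO as control (3 arrays, whose treatment field reads none). PIK75 and TGX221 both inhibit PI3K, the lipid kinase that relays growth signals. PIK75 prefers the alpha form of its catalytic subunit and TGX221 the beta form. The labelled doses differ widely, so that values of both compounds are set side by side at unequal doses.

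Vesicles fuse with the cell surface when a SNARE protein on the vesicle (a VAMP) zips together with the SNAREs SNAP25 and syntaxin 1 on the plasma membrane. Synaptotagmins sense the calcium that triggers fusion, UNC13 and CADPS proteins and complexins prepare and hold the SNAREs ready, RAB3 proteins and large active zone scaffolds bring vesicles to the release site, and NSF with its SNAP adaptors takes spent SNARE complexes apart. Small cell lung cancer cells of neuroendocrine type use this machinery to secrete granule peptides and amines, and synaptophysin (SYP) is a standard marker of the tumour in pathology. The list also holds some genes at its edge: SYPL1 is a widely expressed relative of synaptophysin, DNM1, SNAP91 and SYNJ1 act in the retrieval of vesicle membrane, and RUNDC3A is an effector of RAP2 in neurons rather than a part of the fusion machine.

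All values are log2 levels made by RMA, and a level of 1 gene cannot be set against that of another because probe sets differ in brightness. Gene medians lay between 8.20 and 8.23 on the 9 arrays, and the interquartile range of gene levels was 2.48 to 2.57 with PIK75, 2.71 to 2.77 with TGX221 and 2.78 to 2.83 in controls. One array stood apart in a sign of RNA quality. The difference between the 3′ and 5′ actin control probe sets was 1.13 on PIK75 replicate 5, against 0.47 and 0.54 on the other PIK75 arrays, 0.26 to 0.41 with TGX221 and 0.24 to 0.44 in controls. Its part in the results was not tested beyond leaving that array out. As to the neuroendocrine nature of the line, 9 of 11 markers listed were measured, among them INSM1, CHGA, CHGB, NCAM1, GRP and UCHL1, and their control means lay between 10.7 and 13.2. These levels are above the array medians, but probe set brightness limits what such a comparison can show. Some values recur: 17 of the 38 genes (44.7%) had the same level to 5 decimals on at least 2 arrays, often of different groups, as did 40.8% of all genes, and what this does to the spread between arrays was not tested. Replicates carry a number only, so that the p-values rest on array-to-array spread alone, possibly technical.

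With PIK75 the release machinery was lower in part, and the part was a set of large falls against a background of small shifts. Of the 38 genes, 14 fell by 1.5-fold or more, and no member rose by that much. PCLO, RAB3C, RAB3B, CPLX1, SNAP25, CADPS and SYT1 led the falls, at levels 1.97-fold to 3.57-fold lower than in control cells. In contrast, the t-SNARE STX1A, the RAB protein RAB3A, the priming factor UNC13A, complexin CPLX2 and the scaffolds BSN and ERC2 did not pass the test, and the vesicle marker SYP was slightly higher. On bulk arrays, fewer cells that use a gene and less RNA of it per cell cannot be told apart. Tests used limma on all 9 arrays, p-values were adjusted across the 19775 genes (Benjamini-Hochberg), and an adjusted p under 0.05 counted as a call. By that rule 27 of the 38 members were called with PIK75 against control, 19 lower and 8 higher, where 60.4% of all genes were called (25.2% lower and 35.2% higher). The members' share of calls, 71.1%, lies near that background, and none of the 8 rises held with arrays centred on hybridization spikes, which moved the median of all genes by -0.35. Without PIK75 replicate 5, a setting added after the data were seen, 12 members were lower by 1.5-fold or more, 16 were called lower and 4 higher. With the mean of all probe sets of a gene, 9 of the 14 genes stayed lower by 1.5-fold or more, while CADPS (log2 -0.40, adjusted p = 5.25e-06), RAB3C (log2 -0.39, adjusted p = 0.000150), RUNDC3A (log2 -0.37, adjusted p = 2.56e-05), SYNJ1 (log2 -0.22, adjusted p = 0.0128) and NSF (log2 -0.12, adjusted p = 0.0455) were lower by less. PCLO then read -1.18 and SNAP25 -1.01. Falls of 1.5-fold or more took 36.8% of the members, against 10.4% of all genes. Rises of that size took 0 of 38 by limma, against 1.48% of all genes. At an unadjusted p below 0.05, 8 of the 38 members were higher, against 7733 of all 19775 genes. The median log2 change was -0.16 over the members and 0.088 over all genes. Member probe sets were mostly bright, with 7 of 38 below the median of all gene means. With only the 9887 genes above that median fitted, 4142 were called lower and 3164 higher, and their median change was -0.045. The share of 1.5-fold falls among these brighter genes was not computed. The lists were chosen with earlier results of these data known, so an excess in the members is no independent evidence. The values of PIK75 and control arrays did not overlap for 25 members (65.8%), which is close to the 64.7% of all genes.

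**Figure D1:**
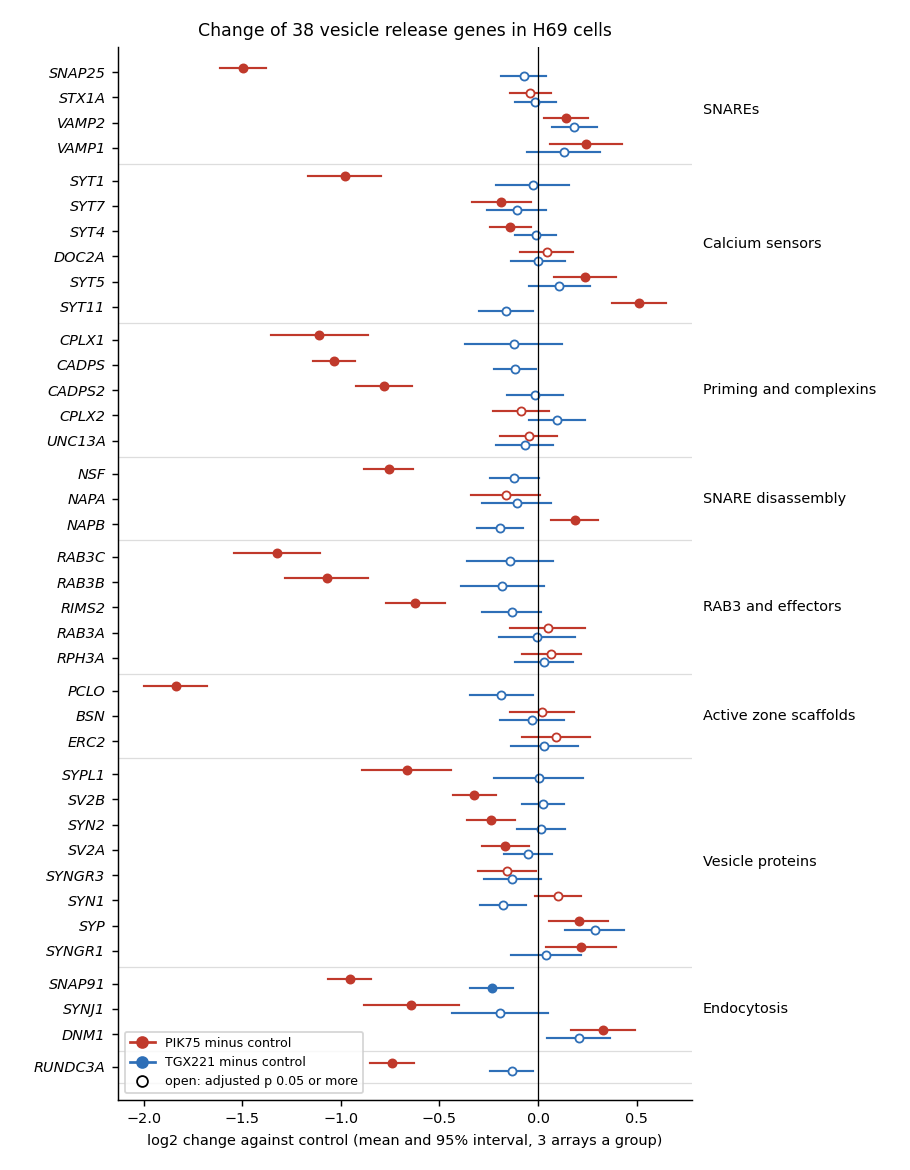
Log2 change of each of the 38 genes against control, grouped by role, with PIK75 in red and TGX221 in blue (points are differences of group means of 3 arrays, lines are 95% intervals of the limma fit, filled points have an adjusted p below 0.05). The red points of 14 genes lie at or below -0.62, while the blue points of all 38 genes lie between -0.23 and 0.29.

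REST is the repressor that shuts neuronal genes off in other tissues, and it binds a long element called RE1. REST itself was slightly higher with PIK75 (log2 0.18, adjusted p = 0.0298), and its partner RCOR1 lower (log2 -0.59, adjusted p = 6.58e-05). REST values of PIK75 and control arrays overlapped, and REST did not pass against TGX221 (log2 0.11, adjusted p = 0.174). The rise of REST is smaller than the hybridization spike shift of 0.35. Promoter windows of 300 bases (250 before to 50 after the gene start, RefSeq, build GRCh38.p14) were at hand for 30 of the 38 members, and were searched on both strands for letters of RE1, which were chosen after the values of these genes had been seen. The core TTCAGCACC was in 2 of the 30 windows (6.67%), those of UNC13A and SYN1, against 0.403% of 27305 windows of all genes. The letters GGACAGCG were in 3 windows (10%), those of UNC13A, BSN and RPH3A, against 1.72% of all. In SYN1 the core was followed, after 2 bases, by GGACAG, an arrangement found in 3 windows of all genes. UNC13A held these parts on the strand opposite to the gene with 8 bases between them, also in 3 windows of all genes. GGACAGCG overlaps the GGACAG of these arrangements. These 4 genes did not pass with PIK75 against control, with log2 changes between -0.048 and 0.10. A match of letters does not show that the factor binds there, and its absence from the short windows of other genes says nothing about the factor. The windows of UNC13A and SYN1 are shown for these letters, which stand in capitals (in UNC13A as their reverse complement), and that of PCLO, the gene with the largest fall, for contrast, with a GC box (GGGCGG) in capitals.
UNC13A, chr19:17688305-17688604, minus strand: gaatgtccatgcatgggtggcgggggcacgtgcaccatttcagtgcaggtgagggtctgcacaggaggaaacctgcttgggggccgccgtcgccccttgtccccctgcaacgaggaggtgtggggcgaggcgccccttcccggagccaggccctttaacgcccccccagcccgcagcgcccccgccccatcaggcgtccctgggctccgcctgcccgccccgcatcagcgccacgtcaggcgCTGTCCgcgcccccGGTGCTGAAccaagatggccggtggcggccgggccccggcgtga
SYN1, chrX:47619808-47620107, minus strand: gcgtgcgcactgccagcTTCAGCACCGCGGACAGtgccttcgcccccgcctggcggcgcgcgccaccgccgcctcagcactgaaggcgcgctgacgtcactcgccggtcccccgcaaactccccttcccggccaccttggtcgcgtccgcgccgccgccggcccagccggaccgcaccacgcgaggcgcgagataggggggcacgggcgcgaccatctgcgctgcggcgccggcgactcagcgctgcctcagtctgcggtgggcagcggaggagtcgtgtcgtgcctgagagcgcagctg
PCLO, chr7:83162835-83163134, minus strand: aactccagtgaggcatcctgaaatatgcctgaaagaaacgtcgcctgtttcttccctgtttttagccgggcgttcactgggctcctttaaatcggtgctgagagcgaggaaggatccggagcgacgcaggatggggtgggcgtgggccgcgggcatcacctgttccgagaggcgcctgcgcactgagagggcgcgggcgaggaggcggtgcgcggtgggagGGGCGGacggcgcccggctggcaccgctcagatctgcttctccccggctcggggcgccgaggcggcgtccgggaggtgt

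In the UNC13A window the capitals span bases 243 to 248 and 257 to 265, counted from 1 at the 5′ end, so that they lie on both sides of the gene start. In SYN1 they take bases 18 to 34, far upstream of the start. The GC box, GGGCGG, was in 22 of the 30 member windows (73.3%), against 44.6% of all windows, and in 7 of the 9 windows of genes that fell by 1.5-fold or more. The E-box CAGCTG was in 5 of 30 (16.7%, against 17.7% of all), and the TATA letters TATAAA in none of 30 (against 12% of all windows). Member windows were rich in G and C, with a median of 68%, against 58.3% over all windows. It was 63.3% for the 9 genes that fell by 1.5-fold or more and 69.7% for the other 21 members, with ranges of 57.3% to 76% and 37.3% to 82.3% that overlap broadly.

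Of the 4 SNAREs on the list, 1 fell strongly and 2 were slightly higher. SNAP25, the plasma membrane SNARE that botulinum toxin A cleaves, had levels of 9.99, 9.91 and 9.90 on the PIK75 arrays, 11.38, 11.40 and 11.29 on the TGX221 arrays and 11.45, 11.39 and 11.45 on the control arrays. All 3 PIK75 arrays lay well over 1 log2 unit below every other array, and SNAP25 was 2.82-fold lower than in control (log2 -1.50, SE 0.0529, adjusted p = 1.17e-09). Its other 2 probe sets were lower too (log2 -0.68 and -0.85), though by less. STX1A, the syntaxin that pairs with SNAP25, read 9.46, 9.44 and 9.43 with PIK75, 9.46, 9.51 and 9.44 with TGX221 and 9.46, 9.51 and 9.48 in controls. PIK75 and control values met only at the shared value 9.46, and STX1A did not pass (PIK75 against control log2 -0.040, 95% interval -0.14 to 0.064). VAMP2, the main vesicle SNARE of neurons, was at 9.19, 9.21 and 9.19 with PIK75, 9.29, 9.19 and 9.23 with TGX221 and 9.08, 8.99 and 9.09 in controls. Both inhibitor groups lay above the control arrays, and the test called the PIK75 difference (log2 0.14, adjusted p = 0.0332) but not that with TGX221 (log2 0.18, adjusted p = 0.102). VAMP1, its close relative, had 8.47, 8.65 and 8.55 with PIK75, 8.47, 8.31 and 8.55 with TGX221 and 8.30, 8.47 and 8.16 in controls, groups that share the value 8.47. Its brightest probe set was called higher (log2 0.24, adjusted p = 0.0248) and a further one as well (log2 0.30), but the dimmest one was lower (log2 -0.60, adjusted p = 6.9e-05), so that the direction of VAMP1 depends on the probe set. The rises of VAMP1 and VAMP2 also turned with scaling: with arrays centred on hybridization spikes they read -0.11 and -0.21, where the median of all genes moved by -0.35.

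Among the calcium sensors, only 1 of 6 had a fall past 1.5-fold. SYT1, the fast calcium sensor of synchronous release, had 10.02, 10.08 and 9.77 with PIK75, 10.75, 11.02 and 10.96 with TGX221 and 10.92, 10.89 and 11.00 in controls. Its PIK75 values lay below all others, 1.97-fold lower than control (log2 -0.98, SE 0.0852, adjusted p = 1.02e-06), and its second probe set was lower too (log2 -0.93). SYT11, a synaptotagmin that does not bind calcium, moved the other way, with 9.41, 9.25 and 9.17 on PIK75 arrays against 8.65, 8.59 and 8.59 with TGX221 and 8.75, 8.82 and 8.73 in controls. This was the largest rise among the 38 genes (log2 0.51, SE 0.0629, adjusted p = 2.26e-05), yet 1 of its 2 dimmer probe sets was lower (log2 -0.38, adjusted p = 0.00249) and the other higher (log2 0.24, adjusted p = 0.0210). SYT11 did not pass with the hybridization spikes (log2 0.16, adjusted p = 0.0772). The small calls of SYT4 (log2 -0.14, adjusted p = 0.0236), SYT7 (log2 -0.19, adjusted p = 0.0343) and SYT5 (log2 0.24, adjusted p = 0.0127) went in both directions (SYT5 read -0.11 with the hybridization spikes), and DOC2A, another calcium-binding protein of vesicles, did not pass (log2 0.044, adjusted p = 0.555). SYT7 was lower for its brightest probe set only, and the mean of its probe sets read 0.045 (adjusted p = 0.352).

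Of 5 priming factors and complexins, 3 fell by 1.5-fold or more and 2 did not pass. CADPS, which primes dense-core vesicles for release, read 8.71, 8.66 and 8.61 with PIK75, 9.59, 9.56 and 9.58 with TGX221 and 9.70, 9.70 and 9.69 in controls. It was 2.05-fold lower with PIK75 than in control (log2 -1.03, SE 0.0486, adjusted p = 6.42e-09), and a dim probe set was lower as well (log2 -1.29), while the dimmest was higher (log2 0.17) and its other 3 probe sets did not pass. The paralogue CADPS2 had 10.34, 10.36 and 10.58 with PIK75, 11.22, 11.19 and 11.16 with TGX221 and 11.19, 11.18 and 11.25 in controls (log2 -0.78, SE 0.0653, adjusted p = 7.34e-07). Both CADPS genes were thus lower on every PIK75 array than on any other array. CPLX1, a complexin that clamps assembled SNAREs, was at 7.04, 6.97 and 6.54 with PIK75, 7.80, 7.92 and 7.80 with TGX221 and 7.80, 8.01 and 8.07 in controls. It was 2.16-fold lower (log2 -1.11, SE 0.113, adjusted p = 4.16e-06), with its lowest value on PIK75 replicate 5, and without that array the change was -0.95 (adjusted p = 2.51e-06). CPLX2, the sister gene, had 8.44, 8.62 and 8.66 with PIK75, 8.76, 8.76 and 8.76 with TGX221 and 8.69, 8.57 and 8.73 in controls. PIK75 and control values of CPLX2 overlap (log2 -0.088, 95% interval -0.23 to 0.053), and whether the response of CPLX1 differs from that of CPLX2 was not tested. UNC13A, the MUNC13 protein that opens syntaxin for assembly, read 8.28, 8.19 and 8.16 with PIK75, 8.19, 8.19 and 8.19 with TGX221 and 8.19, 8.41 and 8.17 in controls, all overlapping (PIK75 against control 95% interval -0.19 to 0.098).

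In SNARE disassembly the ATPase NSF had 10.69, 10.58 and 10.59 with PIK75, 11.29, 11.24 and 11.25 with TGX221 and 11.41, 11.44 and 11.29 in controls. It was 1.69-fold lower with PIK75 (log2 -0.76, SE 0.0568, adjusted p = 2.69e-07). Its second brightest probe set was higher instead (log2 0.28, adjusted p = 0.00825). NSF has a near-identical pseudogene copy in the genome, and which of its probes read that copy is not known from the files. Of its adaptors on the list, NAPB was slightly higher (log2 0.19, adjusted p = 0.0113, but log2 -0.17 with the hybridization spikes) and NAPA did not pass (log2 -0.16, adjusted p = 0.0956), while NAPG, from the lists of further genes, was lower (log2 -1.24, adjusted p = 5.33e-09).

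Of 5 RAB3 genes and effectors, 3 fell by 1.5-fold or more and 2 did not pass. RAB3C had 7.69, 7.49 and 7.42 with PIK75, 8.79, 8.85 and 8.49 with TGX221 and 8.88, 8.97 and 8.72 in controls, a level 2.50-fold lower with PIK75 than in control (log2 -1.32, SE 0.100, adjusted p = 2.95e-07). Of its dimmer probe sets, 1 was lower (log2 -0.58), 1 higher (log2 0.23) and 1 not called. RAB3B, the RAB3 form known from endocrine cells, read 7.60, 7.77 and 7.47 with PIK75, 8.38, 8.74 and 8.38 with TGX221 and 8.65, 8.66 and 8.74 in controls. It was 2.10-fold lower (log2 -1.07, SE 0.0968, adjusted p = 1.43e-06), and all 4 of its other probe sets were called lower (log2 -1.07, -0.80, -0.59 and -0.31). RAB3A, the most studied form at synapses, was at 9.11, 9.20 and 9.41 with PIK75, 9.29, 9.22 and 9.05 with TGX221 and 9.22, 9.29 and 9.06 in controls, with no separation of the groups (PIK75 against control 95% interval -0.14 to 0.24). RIMS2, which tethers RAB3 vesicles to calcium channels, had 8.46, 8.65 and 8.72 with PIK75, 9.09, 9.12 and 9.09 with TGX221 and 9.17, 9.32 and 9.20 in controls (log2 -0.62, SE 0.0689, adjusted p = 8.79e-06). The size of its fall depended on the probe set, since the next brightest was far lower (log2 -1.71) and the dimmest higher (log2 0.27). Rabphilin, RPH3A, the other RAB3 effector listed, was dim and did not pass (log2 0.068, adjusted p = 0.399).

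Of the active zone scaffolds, PCLO had the largest change of all 38 genes. Piccolo, its product, is a giant protein that organizes the release site. PCLO levels were 8.11, 7.94 and 8.24 with PIK75, 9.68, 9.75 and 9.81 with TGX221 and 9.87, 9.95 and 9.98 in controls, so that PIK75 arrays lay about 1.8 log2 units below controls (3.57-fold lower, log2 -1.84, SE 0.0735, adjusted p = 2.53e-09). The second probe set gave nearly the same fall (log2 -1.77), and the dimmest did not pass (log2 0.076, adjusted p = 0.365). Bassoon, BSN, a scaffold that works with piccolo, and ERC2 had group means of 6.53 and 6.83 with PIK75, against 6.51 and 6.74 in controls, and neither passed (log2 0.022 and 0.091). Both were among the 7 members whose mean over the 9 arrays lay below the median of all gene means, 8.23.

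**Figure D2:**
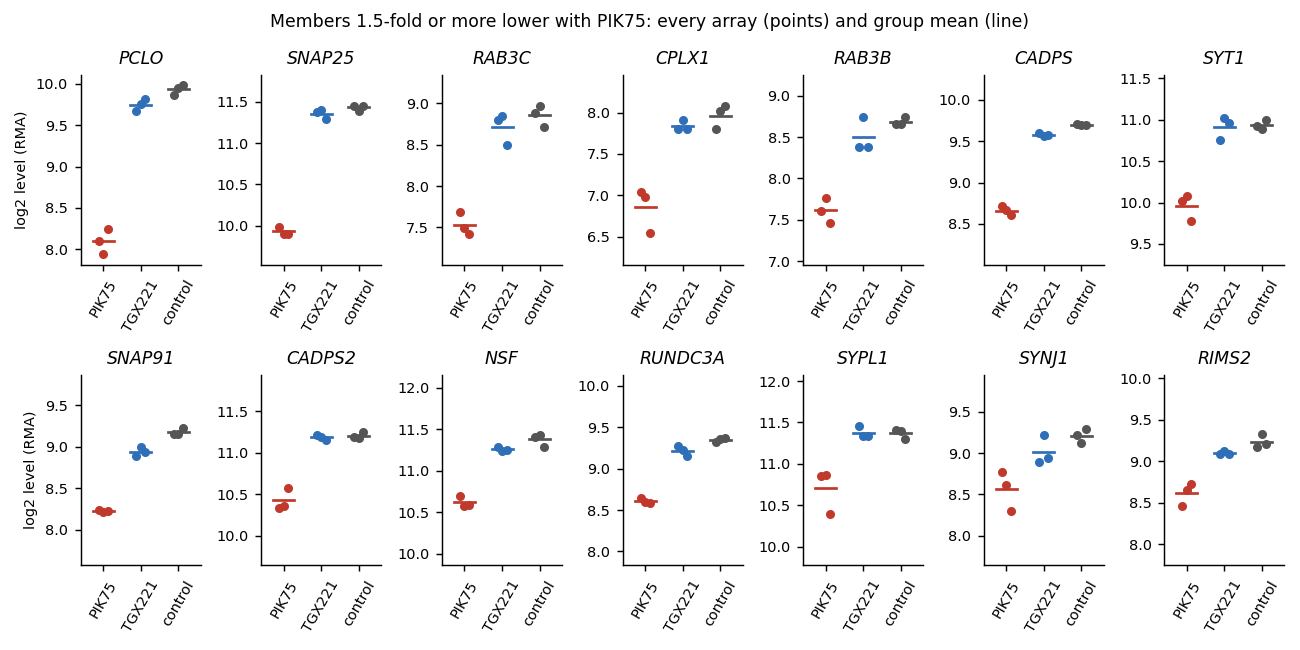
Log2 level on every array (points) with the group mean (line) for the 14 genes that were 1.5-fold or more lower with PIK75, in order of the size of the fall. Every panel spans the same number of log2 units, and in each the 3 PIK75 arrays lie below all TGX221 and control arrays. The genes were chosen by their fall against control on these PIK75 arrays, so this separation is no independent evidence.

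Of 8 proteins of the vesicle membrane and its coat, 4 were lower and 2 higher with PIK75, and all but SYPL1 differed by less than 1.5-fold. SYP, the tumour marker synaptophysin, had 9.24, 9.48 and 9.43 with PIK75, 9.38, 9.44 and 9.57 with TGX221 and 9.17, 9.19 and 9.17 in controls. Both inhibitor groups lay above the controls, by 0.21 with PIK75 (adjusted p = 0.0217) and by 0.29 with TGX221 (adjusted p = 0.0657), and with the hybridization spikes the PIK75 value turned to -0.15 (adjusted p = 0.0926). Its relative SYPL1 read 10.86, 10.86 and 10.40 with PIK75, 11.45, 11.33 and 11.34 with TGX221 and 11.41, 11.40 and 11.30 in controls (log2 -0.67, SE 0.104, adjusted p = 0.000163). Its PIK75 replicate 5 was the lowest array, and without it the change was -0.51, under 1.5-fold (adjusted p = 4.02e-05). The second SYPL1 probe set fell by a like amount (log2 -0.78). SV2B, a transporter-like glycoprotein of vesicles, had 11.22, 11.16 and 11.20 with PIK75, 11.59, 11.49 and 11.55 with TGX221 and 11.49, 11.53 and 11.54 in controls, a small fall without overlap (log2 -0.32, SE 0.0498, adjusted p = 0.000151). One dimmer probe set of SV2B was higher (log2 0.20), and for the mean of its probe sets SV2B did not pass (log2 -0.084, adjusted p = 0.123). Its paralogue SV2A, the binding site of levetiracetam, was lower by less (log2 -0.17, adjusted p = 0.0224). Synapsins tie vesicles to the cytoskeleton. SYN2 was lower (log2 -0.24, adjusted p = 0.00321), with 2 further probe sets lower as well (log2 -0.41 and -0.75), while SYN1 did not pass (log2 0.10, adjusted p = 0.111). The synaptogyrins SYNGR1 (log2 0.22, adjusted p = 0.0341, but log2 -0.13 with the hybridization spikes) and SYNGR3 (log2 -0.16, adjusted p = 0.0582) stayed within about 0.2 log2 units of control.

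In membrane retrieval, SNAP91, a clathrin adaptor of neurons also called AP180, had 8.23, 8.21 and 8.22 with PIK75, 8.89, 8.99 and 8.94 with TGX221 and 9.15, 9.16 and 9.23 in controls. The 3 groups did not overlap, and SNAP91 was 1.94-fold lower with PIK75 than in control (log2 -0.95, SE 0.0502, adjusted p = 1.42e-08). SYNJ1, the lipid phosphatase synaptojanin that strips clathrin coats, read 8.77, 8.62 and 8.30 with PIK75, 8.89, 9.21 and 8.94 with TGX221 and 9.22, 9.12 and 9.28 in controls (log2 -0.64, SE 0.111, adjusted p = 0.000381), and its 2 dim probe sets did not pass. Without PIK75 replicate 5, its lowest array, the change of SYNJ1 was -0.51, also under 1.5-fold (adjusted p = 0.00104). DNM1, the neuronal dynamin that pinches vesicles off, was higher (log2 0.33, adjusted p = 0.00250), but not with the hybridization spikes (log2 -0.023, adjusted p = 0.814). RUNDC3A, outside these roles, had 8.64, 8.60 and 8.59 with PIK75, 9.27, 9.22 and 9.15 with TGX221 and 9.32, 9.35 and 9.38 in controls (log2 -0.74, SE 0.0504, adjusted p = 1.15e-07). Its second probe set did not pass (log2 0.0092, adjusted p = 0.895), although it is nearly as bright.

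Probe sets of the same gene were compared, since they read different stretches of its transcripts. The 38 genes have 88 probe sets, of which 35 were lower, 17 higher and 36 not called with PIK75 against control. Of 21 called members with more than 1 probe set, 7 had another one called in the opposite direction: VAMP1, SYT11, CADPS, NSF, RAB3C, RIMS2 and SV2B. Calls and opposite calls were not counted over the probe sets of all genes, so whether these counts are unusual is not known. All probe sets of SNAP25, SYT1, RAB3B and SYPL1 were lower, and for these genes the call does not depend on the choice of probe set.

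**Figure D3:**
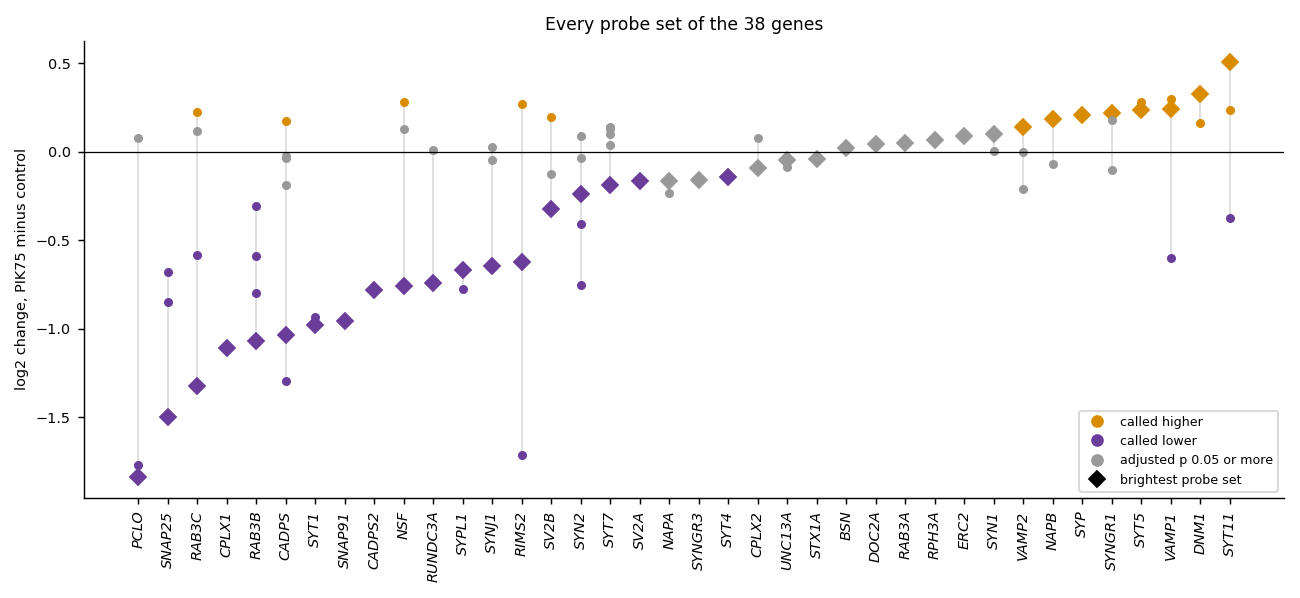
Log2 change with PIK75 against control of all 88 probe sets, by gene, ordered by the change of the brightest probe set (diamond), with other probe sets as circles and colours for the call. Orange circles above purple diamonds mark genes such as RAB3C and RIMS2 whose probe sets were called in opposite directions.

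TGX221 left the release genes close to control. Of the 38 members 1 was called, SNAP91, which was lower (log2 -0.23, SE 0.0502, adjusted p = 0.0483), where 1.21% of all genes were called (0.399% lower and 0.809% higher). None was called higher by limma. At an unadjusted p below 0.05, 3 of the 38 were higher and 7 lower, against 1862 and 1758 of all 19775 genes. SNAP91 lay just inside the threshold and lost its call under many of the alternatives (adjusted p from 0.0265 to 0.456), among them the removal of any control array or of TGX221 replicate 2 or 5. Over all 88 probe sets of the members, adjusted with every other probe set, none was called by limma with TGX221. No member changed by 1.5-fold or more, as 0.0152% of all genes did by falling. The changes of the 38 genes lay between -0.23 and 0.29, and the widest 95% intervals reached -0.44 and 0.44, less than 1.5-fold in either direction. Each interval holds for 1 gene taken singly, for its brightest probe set and on the RMA scale, and not for the 38 genes jointly. For the 14 genes that fell with PIK75, the TGX221 values ran from -0.23 (SNAP91) to 0.0035 (SYPL1), with a median of -0.13. PCLO was at -0.19 (95% interval -0.35 to -0.027), SNAP25 at -0.073 (-0.19 to 0.042) and CADPS at -0.12 (-0.22 to -0.012). Values of TGX221 and control arrays did not overlap for 13 members (34.2%), against 23.9% of all genes, and the comparisons of both inhibitors share the same control arrays.

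Set directly against TGX221, PIK75 gave lower levels of 18 members and higher levels of 3, where 22.3% of all genes were lower and 25.1% higher (47.4% called in all). Falls of 1.5-fold or more took 12 of the 38 genes (31.6%), against 8.44% of all genes, and a rise of that size 1 of them (SYT11), against 1.73% of all genes. Values of the 2 inhibitor groups did not overlap for 22 members (57.9%), close to the 55.1% of all genes. With only the 9887 genes above the median brightness fitted, 3815 were called lower and 2604 higher in this comparison. All 14 genes named above as fallen were lower with PIK75 than with TGX221, without overlap, by -0.45 (SYNJ1) to -1.65 (PCLO). These genes were chosen by their fall against control on the same PIK75 arrays, so their separation here is no independent evidence. With the mean of probe sets the calls of NSF (log2 -0.0082, adjusted p = 0.891) and SYNJ1 (log2 -0.088, adjusted p = 0.279) were lost. Of 17 members called in this comparison with more than 1 probe set, 5 had another one called in the opposite direction. These were higher for NSF (log2 0.53), PCLO (log2 0.36), RAB3C (log2 0.26), RIMS2 (log2 0.25) and SV2B (log2 0.22). SNAP25 differed by -1.42 (SE 0.0529, adjusted p = 2e-09) and RAB3C by -1.18 (SE 0.100, adjusted p = 9.79e-07). The genes higher with PIK75 than with TGX221 were SYT11 (log2 0.67, adjusted p = 2.35e-06), NAPB (log2 0.38, adjusted p = 9.93e-05) and SYN1 (log2 0.28, adjusted p = 0.000924). CPLX2, which had not passed against control, was lower with PIK75 than with TGX221 (log2 -0.19, adjusted p = 0.0323). The calls of CPLX2 (log2 -0.091, adjusted p = 0.153) and SV2B (log2 -0.081, adjusted p = 0.155) were also lost with the mean of probe sets. SYP, VAMP1, VAMP2 and DNM1 did not pass in this comparison, with 95% intervals of -0.23 to 0.069, -0.069 to 0.30, -0.16 to 0.072 and -0.039 to 0.28. These differences were seen at 100 nM of one compound and a labelled 1 mM of the other, and an effect of the dose and one of the compound cannot be told apart.

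Other genes of release and recycling moved in both directions with PIK75. Of 102 such genes, 95 were measured, and 37 were lower and 31 higher (38.9% and 32.6%, against 25.2% and 35.2% of all genes), with a median log2 change of 0.021. Falls of 1.5-fold or more took 18 of them (18.9%) and a rise of that size 1. Other probe sets of these further genes were not compared gene by gene. Their rises are on the RMA scale, and centring on hybridization spikes moved the median of all genes by -0.35. Of 17 further SNAREs and partners 9 were lower and 4 higher, led by STXBP5L, a tomosyn that binds SNAREs (log2 -1.57, adjusted p = 2.63e-09), NAPG, a further SNAP adaptor of NSF (log2 -1.24, adjusted p = 5.33e-09), and STXBP6, known as amisyn (log2 -1.11, adjusted p = 5.59e-08). Among 10 further synaptotagmins and DOC2 genes 3 were lower and 6 higher, with SYT17 lower (log2 -1.03, adjusted p = 6.76e-08), SYT14 lower (log2 -0.34, adjusted p = 0.00391) and SYT16 higher (log2 0.46, adjusted p = 0.000551). Of 15 genes of priming and active zones 5 were lower and 4 higher. UNC13B, the paralogue of UNC13A, was lower (log2 -0.71, adjusted p = 6.16e-07), as was the liprin PPFIA1 (log2 -0.61, adjusted p = 5.88e-06), and RIMS4 was higher (log2 0.46, adjusted p = 0.00116).

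Of 12 RAB3 and RAB27 partners 4 were lower and 3 higher (33.3% and 25%). Over all genes 25.2% were lower and 35.2% higher, which is the background for the lists that follow as well. DMXL2, or rabconnectin-3, was lower (log2 -1.01, adjusted p = 6.88e-08), as was the GTPase-activating subunit RAB3GAP1 (log2 -0.75, adjusted p = 2.7e-07). SYTL2, a RAB27 effector, was higher (log2 0.60, adjusted p = 2.22e-06). Of 18 further vesicle membrane proteins 4 were lower and 7 higher (22.2% and 38.9%), near the shares of all genes. SLC18A1, the monoamine transporter of endocrine vesicles, was lower (log2 -0.81, adjusted p = 1.37e-07), as was SYNGR2 (log2 -0.60, adjusted p = 5.7e-06), and gamma-synuclein, SNCG, was higher (log2 0.36, adjusted p = 0.000800). Vesicle endocytosis had 12 of 23 genes lower and 7 higher, and SH3GL2, the brain form of endophilin (log2 -1.55, adjusted p = 3.31e-09), ITSN1, an intersectin (log2 -0.99, adjusted p = 9.39e-08), and AMPH, amphiphysin (log2 -0.97, adjusted p = 1.3e-07), were the largest falls. With TGX221, 1 of the 95 genes was called by limma, UNC13D (log2 0.29, adjusted p = 0.0495), and none lower. Of all genes, 1.21% were called with TGX221. At an unadjusted p below 0.05, 13 of the 95 were lower, against 1758 of all 19775 genes.

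**Figure D4:**
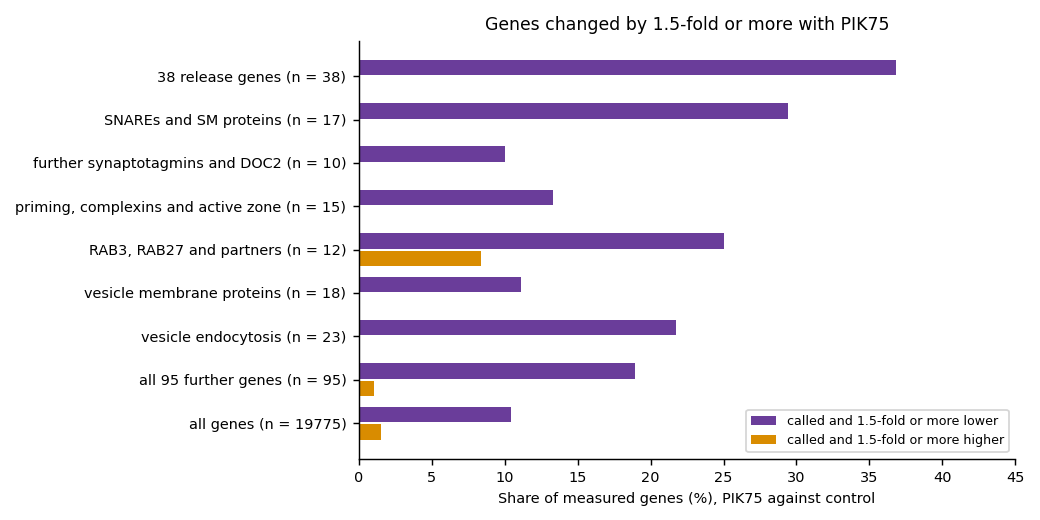
Share of measured genes that were called and changed by 1.5-fold or more with PIK75 against control, in the 38 release genes, 6 lists of further genes, those lists together and all genes. Falls took 36.8% of the 38 genes, 18.9% of the 95 further genes and 10.4% of all genes. The lists were chosen with earlier results of these data known, and all genes include many dim ones.

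The changes stood beside shifts in markers of the cells. Of 9 measured neuroendocrine markers 7 were lower and none higher with PIK75 by limma, where 25.2% of all genes were lower and 35.2% higher. The probe sets of these markers are bright, and of the 9887 genes above the median brightness 4142 were called lower and 3164 higher. The summed log2 level of the 9 markers was 105.6 to 106.3 with PIK75, 109.7 to 110.1 with TGX221 and 109.7 to 110.0 in controls. DDC, a decarboxylase of amine synthesis, was lower (log2 -1.21, adjusted p = 2.73e-09), while CHGA and INSM1 did not pass (log2 -0.047 and -0.079). Of 14 measured markers of non-neuroendocrine or mesenchymal, leukocyte and endothelial cells, 7 were called higher and 1, ANXA1, lower with PIK75, against 35.2% higher of all genes, whose median change was 0.088. The 7 rises lay between 0.20 and 0.40, and with the hybridization spike shift of 0.35 taken off, 6 of them were at or below 0. Their summed log2 levels were 60.1 to 60.5, 20.1 to 20.8 and 22.9 to 23.2 with PIK75, against 59.3 to 59.8, 19.7 to 20.1 and 22.3 to 22.4 in controls, and RMA gives no level of 0. Their part in the result was not tested.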

How the data were processed

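Total RNA of H69 cells was labelled from 2 ug per sample and hybridized to single-colour Affymetrix expression arrays, 3 per group. The deposited values are log2 expression levels made with RMA, per the submitters' processing notes; its version, background step and the genome build are not given in the sources used here. The log2 scale was checked on the values, and since RMA brings arrays to a common probe distribution, a shift shared by all genes would not show. Of 54675 probe sets, 41091 carried 1 gene symbol in GEO's platform annotation, 1801 several, 11721 none, and 62 were controls; symbols were updated by gene identifier for 41037. The brightest probe set over all 9 arrays stood for each of 19775 genes. No column was left unmapped.

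Group means were fitted to all 9 arrays with limma 3.58.1 (lmFit and eBayes, 6 residual and 6.16 prior degrees of freedom) in R 4.3.3, with Benjamini-Hochberg adjustment over all genes and a threshold of 0.05. Intervals are at 95%. The number of arrays limits the precision, and 3 arrays against 3 allow no exact permutation p below 0.1. Promoter windows were searched with Python 3.11.15.

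The members and the other lists were chosen with earlier results of these data known. Values per array are given for called members that changed by 0.58 or more on the log2 scale in any comparison, for members whose probe sets were called in opposite directions, and for SNAP25, STX1A, VAMP1, VAMP2, SYT1, SYP, CPLX1, CPLX2, RAB3A and UNC13A. Of the other lists, up to 3 called genes with the largest change are named. Alternatives covered the scaling, the filter on dim genes, the choice of probe set, the variance model, the threshold, a replicate block and single arrays left out. Several neuroendocrine and leukocyte markers were not analysed here.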

Additional observations from a re-analysis of the deposited data

How the results depend on the processing

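With PIK75 against control, 15 of the 27 called members kept a call in the same direction under each alternative that tested them, thresholds aside: the 14 genes that fell by 1.5-fold or more and SYN2. CPLX1 was removed by the filter on dim genes and not tested there, and the reported change of SYN2 is under 1.5-fold. The size was less stable, since with the mean of probe sets 9 of the 14 were lower by 1.5-fold or more. Against TGX221, 14 of 21 called members kept their call, and NSF, SYNJ1, CPLX2 and SV2B lost it with the mean of probe sets. The 8 higher members were 2 with poly-A spikes, 0 with hybridization spikes (by limma), 4 with the mean of probe sets, 2 at an adjusted p below 0.01, 0 at 1.5-fold or more, and 3 to 7 with single arrays left out (4 without PIK75 replicate 5, 3 without PIK75 replicate 3, and 5 without control replicate 1 or 5). The 19 lower members were 32 with hybridization spikes and 16 to 20 with single arrays left out. The hybridization spikes moved the median of all genes by -0.35 for PIK75 against control and by -0.29 for PIK75 against TGX221, and poly-A spikes moved the second by -0.15. Over all genes the split of 6965 higher and 4982 lower calls became 386 and 13108 with hybridization spikes, 2469 and 5109 with poly-A spikes, and 4312 and 5024 with cyclic loess. Members that turned negative with hybridization spikes against control were VAMP1 (-0.11), VAMP2 (-0.21), SYT5 (-0.11), DOC2A (-0.31), NAPB (-0.17), RAB3A (-0.30), RPH3A (-0.28), BSN (-0.33), ERC2 (-0.26), SYP (-0.15), SYNGR1 (-0.13), SYN1 (-0.25) and DNM1 (-0.023), all less negative than the shift of -0.35. Against TGX221, 7 members turned negative and were called either with or without these spikes: DOC2A (-0.24), UNC13A (-0.27), RAB3A (-0.24), RPH3A (-0.25), BSN (-0.23), ERC2 (-0.23) and SYN1 (-0.0072). A further 4, VAMP1, SYT5, SYNGR1 and DNM1, turned negative too but were called in neither setting. With the mean of probe sets VAMP1 (-0.019), VAMP2 (-0.023) and SYT7 (0.045) changed sign against control. For TGX221 against control, the 0 higher members became 1 with poly-A spikes. The 1 lower member, SNAP91, became 0 with poly-A spikes, the mean of probe sets, every probe set adjusted together, only the 2 groups, a trended and robust spread, an adjusted p below 0.01, a 1.5-fold minimum, and in the range of 0 to 1 with single arrays left out. For PIK75 against TGX221 the 3 higher members were 1 with poly-A spikes, 1 with hybridization spikes and 1 at 1.5-fold or more (3 to 4 with single arrays left out), and the 18 lower members were 31 with hybridization spikes (16 to 17). The cause of these differences was not tested. Deviations of same-numbered arrays correlated at -0.13, 0.12 and -0.046 between PIK75 and control (replicates 1, 3 and 5), at 0.082 and -0.023 between TGX221 and control (3 and 5) and at 0.065 and 0.23 between PIK75 and TGX221 (3 and 5). Since not every pair was above 0.1, the numbers were not taken to pair the arrays. With the number as a replicate block, 7 members were higher and 20 lower with PIK75 against control, 0 and 0 with TGX221 against control, where 0 of all genes were called by limma, and 3 and 16 with PIK75 against TGX221.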
